A study of Mus musculus with 10 samples.

Results

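The 10 immediate early activation genes Fos, Fosb, Jun, Junb, Jund, Egr1, Egr2, Egr3, Nr4a1 and Nr4a3 were taken by symbol from a table of 56893 genes, and all 10 had a row. Polyadenylated RNA was measured in primary lymphocytes of mouse spleen after CRISPR interference, in which a guide RNA brings a dead Cas9 to a promoter, aimed at Pou2f1, the gene of the octamer-binding factor Oct-1. The 5 groups were T cells given a mock treatment, T cells given sgRNA-P1 against the P1 promoter, mock B cells, and B cells given either sgRNA-P1 or sgRNA-P2, the latter against the P2 promoter. What the mock consisted of, the strain and age of the mice, how the cells were isolated, whether they were stimulated, and the time from isolation to lysis do not appear among the labels used here.

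Immediate early genes are transcribed within minutes of a signal, from factors already in the cell, and their mRNAs are short-lived. In lymphocytes they respond to the antigen receptor through the MAP kinase and calcium pathways, which act on serum response factor with its Elk partners and on CREB. Fos and Jun proteins pair through leucine zippers to form AP-1, the Egr proteins bind GC-rich sites through zinc fingers, and the Nr4a proteins are orphan nuclear receptors used as markers of antigen receptor signalling.

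The replicate columns differed by less than sampling noise allows and were counted as 1 sample, which left 1 library a group, of 28118839 to 71858511 reads. A single comparison therefore has no replicate check. Values in square brackets are 95% intervals that cover counting error only. Levels in CPM are reads scaled to the library total after an adjustment of the totals between libraries. The 7 T cell markers summed to 3414 CPM in both T libraries and to 0.640 to 0.887 CPM in the B libraries. The 6 B cell markers summed to 9390 to 9400 CPM in the B libraries and to 17.6 to 18.1 CPM in the T libraries. Pou2f1 stood at 138 CPM in mock T cells, 66.1 CPM in sgRNA-P1 T cells, 157 CPM in mock B cells, and 91.1 and 86.5 CPM in sgRNA-P1 and sgRNA-P2 B cells. Its T cell values are uncertain, because 3007 of its exon bases lie opposite Cd247, a T cell gene.

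Immediate early mRNAs were abundant in every library, mock included. The 10 genes together took 0.490% of reads in mock T cells, 0.474% in sgRNA-P1 T cells, 0.784% in mock B cells, 0.769% in sgRNA-P1 B cells and 0.796% in sgRNA-P2 B cells. By level per kilobase of exon, Fos ranked 44 of 22827 genes with a read in mock T cells and 25 of 20724 in mock B cells, counting genes of at least 200 bases. Junb ranked 50 and 60 in these libraries, and Jun ranked 120 and 84. At the other end, Nr4a3 ranked 7365 in mock T cells and 13711 in mock B cells. The order by level per kilobase was Fos, Junb, Jun, Fosb, Jund, Nr4a1, Egr1, Egr3, Egr2 and Nr4a3 in both mock libraries. One pair of neighbours could not be ordered in B cells: Nr4a1 and Egr1 stood at 123 [120 to 126] and 119 [117 to 122] CPM per kilobase in mock, but at 121 [118 to 123] and 123 [121 to 125] with sgRNA-P1.

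**Figure D1:**
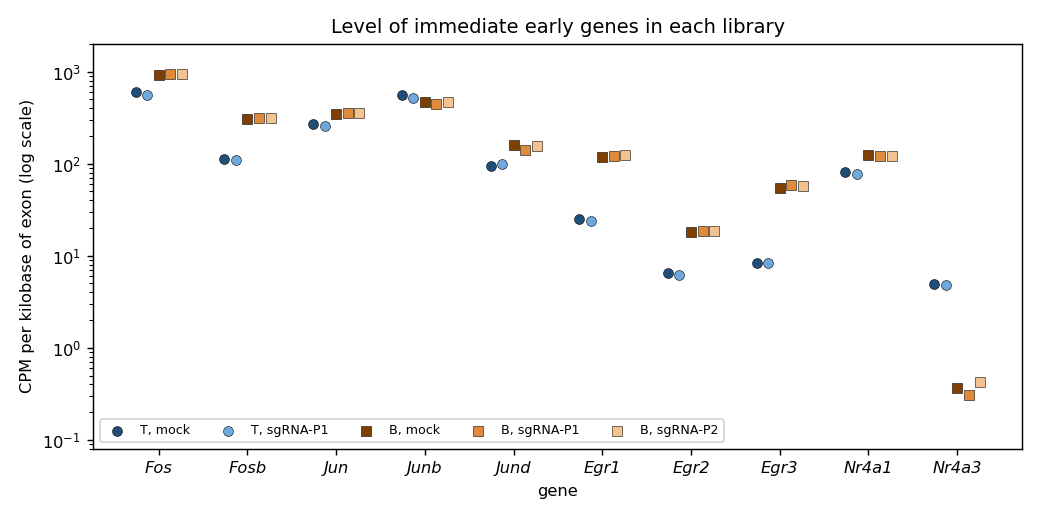
Level of each immediate early gene in each of the 5 libraries, in CPM per kilobase of exon on a log scale (circles, T cells; squares, B cells; 1 point per library). The T and B points lie apart for all 10 genes, from 4.91 against 0.370 CPM per kilobase for Nr4a3 to 558 against 463 for Junb in the mock libraries.

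Fos encodes the founding partner of AP-1 and lies on the plus strand of chromosome 12, from 85520664 to 85524047 in the deposited coordinates, for which the submitters' processing notes name the mouse build mm39. It stood at 1401 CPM in mock T cells, 1318 CPM in sgRNA-P1 T cells, 2186 CPM in mock B cells, 2194 CPM in sgRNA-P1 B cells and 2211 CPM in sgRNA-P2 B cells. Both T libraries lay below all 3 B libraries, and libraries of one cell type were close to each other. Its promoter is shown because Fos was the most abundant member per kilobase in every library, with the TATA box TATAAA and TGACG, the core of a cAMP response element, in capitals (RefSeq, GRCm38.p6, chr12:85473640-85473939, plus strand).
Fos: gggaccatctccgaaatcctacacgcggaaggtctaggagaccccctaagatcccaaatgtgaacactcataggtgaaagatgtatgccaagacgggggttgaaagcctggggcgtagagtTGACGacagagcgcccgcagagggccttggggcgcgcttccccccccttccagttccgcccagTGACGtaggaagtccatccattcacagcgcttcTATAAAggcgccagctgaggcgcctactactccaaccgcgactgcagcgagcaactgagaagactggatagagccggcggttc

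Fosb, the second Fos family member, lies on the minus strand of chromosome 7 from 19036621 to 19043976. Its level was 704 CPM in mock T cells, 685 CPM in sgRNA-P1 T cells, 1933 CPM in mock B cells, and 1946 and 1978 CPM in sgRNA-P1 and sgRNA-P2 B cells. The distance between cell types was wider than for Fos. Within a library, where scaling between libraries plays no part, Fosb stood per kilobase at 0.189 of Fos in mock T cells [0.186 to 0.192] and at 0.333 in mock B cells [0.328 to 0.338]. The ratio was 0.196 in sgRNA-P1 T cells, and 0.334 and 0.337 in sgRNA-P1 and sgRNA-P2 B cells.

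The Jun family members did not share one pattern. Jun, the main partner of Fos in AP-1 (chromosome 4, 94937271 to 94940459, minus strand), was at 852 CPM in mock T cells, 829 CPM in sgRNA-P1 T cells, 1117 CPM in mock B cells, and 1143 and 1127 CPM in sgRNA-P1 and sgRNA-P2 B cells. Junb (chromosome 8, 85701113 to 85705347, minus strand), whose product can oppose Jun at some promoters, was at 1285 CPM in mock T cells, 1205 CPM in sgRNA-P1 T cells, 1066 CPM in mock B cells, and 1017 and 1084 CPM in sgRNA-P1 and sgRNA-P2 B cells. Jun was thus higher in all 3 B libraries than in both T libraries, and Junb lower. Per kilobase, Junb exceeded Jun 2.09-fold in mock T cells [2.06 to 2.12] and 1.32-fold in mock B cells [1.30 to 1.35]. Jund, an AP-1 subunit that resting cells also express (chromosome 8, 71151599 to 71153265, plus strand), was at 159 CPM in mock T cells, 165 CPM in sgRNA-P1 T cells, 266 CPM in mock B cells, and 233 and 259 CPM in sgRNA-P1 and sgRNA-P2 B cells. The strand setting of the counting is not given, and 3 members share exon bases with a gene of the opposite strand: Jun 232 bases with Junos (41 reads in mock T cells), Junb 173 with Prdx2 (2590 reads) and Jund 877 with Gm11175 (0 reads in any library). Reads within those stretches cannot be told apart by strand.

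The Egr genes encode zinc finger factors that follow antigen receptor signals, and all 3 were higher in B cells. Egr1 (chromosome 18, 34992876 to 34998037, plus strand) was at 113 CPM in mock T cells, 108 CPM in sgRNA-P1 T cells, 535 CPM in mock B cells, and 550.0 and 555 CPM in sgRNA-P1 and sgRNA-P2 B cells. Egr3 (chromosome 14, 70314652 to 70320063, plus strand) was at 36.4 CPM in mock T cells, 36.7 CPM in sgRNA-P1 T cells, 241 CPM in mock B cells, and 256 and 253 CPM in sgRNA-P1 and sgRNA-P2 B cells. The distance between T and B libraries was large against the spread within each cell type for both genes. Egr2 (chromosome 10, 67371305 to 67378018, plus strand), which with Egr3 restrains lymphocyte activation, was at 21.8 CPM in mock T cells, 20.9 CPM in sgRNA-P1 T cells, 61.1 CPM in mock B cells, and 63.2 and 63.9 CPM in sgRNA-P1 and sgRNA-P2 B cells. The Egr genes made up 3.51% of the members' reads in mock T cells and 10.7% in mock B cells, while Fos and Jun family genes made up 90.04% and 83.8%. Per kilobase, Egr3 stood at 0.327 of Egr1 in mock T cells [0.307 to 0.348] and 0.458 in mock B cells [0.441 to 0.475], and Egr2 at 0.255 [0.236 to 0.275] and 0.151 [0.141 to 0.161].

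The Nr4a genes differed from each other in the direction of the T and B difference. Nr4a1, which encodes Nur77 (chromosome 15, 101152150 to 101172676, plus strand), was at 286 CPM in mock T cells, 273 CPM in sgRNA-P1 T cells, 432 CPM in mock B cells, and 423 and 426 CPM in sgRNA-P1 and sgRNA-P2 B cells. Nr4a3, which encodes NOR-1 (chromosome 4, 48045153 to 48086447, plus strand), was at 29.4 CPM in mock T cells [27.7 to 31.2], 28.8 CPM in sgRNA-P1 T cells [26.5 to 31.3], 2.22 CPM in mock B cells [1.54 to 3.01], and 1.85 CPM [1.33 to 2.45] and 2.56 CPM [1.79 to 3.54] in sgRNA-P1 and sgRNA-P2 B cells. Nr4a1 was the higher of this pair in all libraries, and Nr4a3 was the only member below 5 CPM in any of them. Per kilobase, Nr4a3 stood at 0.0603 of Nr4a1 in mock T cells [0.0565 to 0.0642] and 0.00301 in mock B cells [0.00209 to 0.00410].

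RefSeq promoter windows of 300 bases, from 250 before to 50 after a start site, were found for 8 of the 10 members. They were searched on both strands for the octamer ATGCAAAT, the motif that Oct-1 is known to bind. Egr2 was the only one of the 8 that held it, and 1.74% of all 32851 windows of that length held it. Members are counted here as genes with a match in any of their windows and the shares are of single windows, so these are different units. The same window held a CArG box, the binding motif of serum response factor, which 1.63% of all windows held and no other of the 8 members did. Motifs more than 250 bases before a start site would be missed, so a member without a match may hold one there. No window was used for Egr1 and Egr3. The Egr2 window is shown for these motifs, with the octamer, the CArG box and TGACG on either strand in capitals (GRCm38.p6, chr10:67537619-67537918, plus strand). In it the octamer begins at position -127 and the CArG box at -72 from the start site.
Egr2: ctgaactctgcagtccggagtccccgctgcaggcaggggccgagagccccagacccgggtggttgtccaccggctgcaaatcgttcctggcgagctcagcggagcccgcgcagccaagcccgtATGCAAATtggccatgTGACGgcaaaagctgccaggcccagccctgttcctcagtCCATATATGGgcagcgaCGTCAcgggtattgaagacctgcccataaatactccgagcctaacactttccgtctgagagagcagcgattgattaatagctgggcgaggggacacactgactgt

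Egr2 has 5 listed windows, of which 3 overlap and hold this octamer. No member's window held TGACGTCA, TGANTCA or GCGTGGGCG, which 1.79%, 7.81% and 0.612% of all windows held. TATAAA occurred in Fos and Junb, and in 13.6% of all windows. It begins at position -33 from the start site in Fos but at position 0 in Junb, so the Junb match does not lie before the start site. TGACG, which lies within TGACGTCA and was added to the search after the letters had been seen, occurred in 6 of the 8 members (Fos, Fosb, Junb, Egr2, Nr4a1 and Nr4a3) and in 20.8% of all windows. These matches are descriptions of letters, and Egr2 mRNA in the libraries with a guide is given with the other members further on. The windows of Nr4a1 and Nr4a3 are shown because these paralogs went opposite ways between the cell types, with TGACG on either strand in capitals (GRCm38.p6, chr15:101266596-101266895 and chr4:48045055-48045354, both plus strand).
Nr4a1: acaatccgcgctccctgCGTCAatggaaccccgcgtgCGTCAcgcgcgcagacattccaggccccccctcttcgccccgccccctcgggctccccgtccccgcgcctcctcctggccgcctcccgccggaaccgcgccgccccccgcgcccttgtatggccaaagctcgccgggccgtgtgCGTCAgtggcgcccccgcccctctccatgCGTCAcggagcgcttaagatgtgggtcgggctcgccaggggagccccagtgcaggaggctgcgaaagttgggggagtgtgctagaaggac
Nr4a3: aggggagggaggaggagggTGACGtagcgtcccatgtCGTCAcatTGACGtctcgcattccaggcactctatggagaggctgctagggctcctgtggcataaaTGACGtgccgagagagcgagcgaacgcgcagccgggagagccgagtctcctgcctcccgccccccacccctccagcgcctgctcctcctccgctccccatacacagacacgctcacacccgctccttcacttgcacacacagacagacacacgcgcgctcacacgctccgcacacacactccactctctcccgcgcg

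Mock T cells were compared with mock B cells gene by gene. Of the 10 members, 7 were at least 1.5-fold lower in T cells, 1 was at least 1.5-fold higher and 2 lay between, while 37% of all 10804 genes at 5 CPM or more were past that size, 18.4% lower and 18.6% higher. The log2 fold change of T over B was -2.73 for Egr3 [-2.82 to -2.64] and -2.24 for Egr1 [-2.30 to -2.19]. Egr2 followed at -1.48 [-1.62 to -1.35] and Fosb at -1.46 [-1.48 to -1.43]. Jund (-0.74), Fos (-0.64) and Nr4a1 (-0.59) were past the size by less. Nr4a1, at 1.51-fold, was barely past it, and its interval [-0.64 to -0.55] includes 1.5-fold, so counting error alone leaves its place among the 7 unsettled. Nr4a3 was 13.1-fold higher in T cells, a log2 fold change of 3.71 [3.28 to 4.26]. Jun (-0.39) and Junb (0.27) did not reach 1.5-fold. The median over the members was -0.69, and over all genes it was 0.02.

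**Figure D2:**
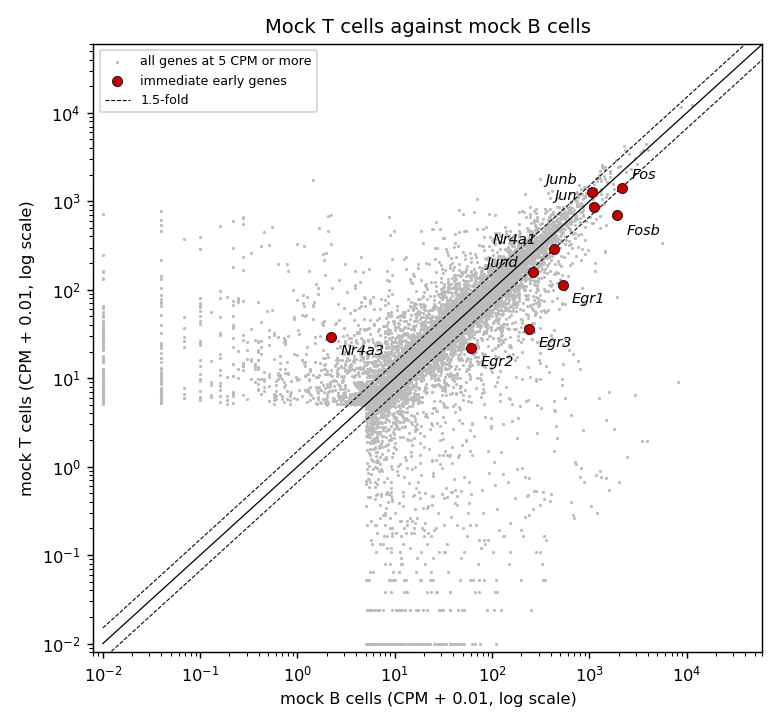
Level of each gene at 5 CPM or more in mock T cells (vertical) against mock B cells (horizontal), in CPM plus 0.01 on log scales, 1 library each. The immediate early genes are in red, with Nr4a3 above the 1.5-fold lines (29.4 against 2.22 CPM), Jun and Junb between them, and the other 7 below.

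The guided libraries of both cell types, compared after the mock values were known, gave the same direction for each of the 10 members. T over B with sgRNA-P1 was -2.80 for Egr3, -2.34 for Egr1, -1.59 for Egr2, -1.51 for Fosb, -0.74 for Fos, -0.63 for Nr4a1 and 3.95 for Nr4a3 on the log2 scale, all past 1.5-fold, as were 39.6% of all genes. Jund was at -0.50 and so short of 1.5-fold, like Jun (-0.46) and Junb (0.24).

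The cell type difference was tested over all 5 libraries in a model with terms for cell type (2 T and 3 B libraries) and for a guide. All 10 members passed at an adjusted p of 0.05 (edgeR's quasi-likelihood test, Benjamini-Hochberg), but so did 64.2% of the 17581 genes tested (32.4% higher and 31.8% lower in T cells), so passing does not set the members apart. Egr3 had the largest estimate among members lower in T cells, -2.78 with a standard error of 0.05 (adjusted p = 1.35e-15). Nr4a3 was at 3.73 with a standard error of 0.12 (adjusted p = 5.41e-13). Junb had the weakest result, 0.22 with a standard error of 0.05 (adjusted p = 0.00206), and was higher in both T libraries than in all 3 B libraries. Whether libraries of one cell type came from separate animals or cultures is not given, so these p-values measure only the spread between these libraries, which may be technical. Fewer cells in an activated state and less mRNA in each cell cannot be told apart in bulk samples.

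Genes that work with the members were read from lists chosen by function, and their counts stand beside 18.6% of all genes higher and 18.4% lower in mock T than mock B cells by 1.5-fold or more. From each list the 3 genes with the highest mean level per kilobase over the 2 mock libraries are named, an order that need not hold within either library. In the list of 15 other immediate early transcription factors, 13 were at 5 CPM or more, of which 6 were at least 1.5-fold lower in mock T than mock B cells and 2 higher, and the median was -0.52 on the log2 scale. By that mean the first were Klf6, a zinc finger factor (748 against 606 CPM), Ier5 (241 against 724 CPM) and Ier2 (199.7 against 234 CPM). Among 11 other AP-1 partners, 4 of the 9 at 5 CPM were lower and 1 was higher (median -0.51). Irf4 and Irf8, which bind composite sites with AP-1 or Ets proteins, stood at 35.5 against 429 CPM and 14.4 against 531 CPM, and the small Maf protein gene Mafk at 84.5 against 115 CPM. In mock T cells Mafk was the highest of these 3 per kilobase, at 21.7 against 7.24 for Irf4 and 2.04 for Irf8. Some family members, named here after their values were seen, went the other way: the Fos relative Fosl2 was at 29.6 CPM in T and 0.621 CPM in B cells, and Nr4a2 at 24.1 and 13.2 CPM.

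The list of feedback inhibitors, some of which are induced along with immediate early genes and limit them, had members on both sides. Of 23 at 5 CPM, 7 were higher in mock T cells by 1.5-fold or more and 6 lower, with a median of -0.14. Btg1 (1574 against 1756 CPM), the mRNA decay factor Zfp36 (634 against 1166 CPM) and the MAP kinase phosphatase Dusp2 (343 against 510 CPM) came first by the mean of the mock libraries. Of the 24 upstream factors and kinases, 17 were within 1.5-fold, 4 were higher in T cells and 3 lower, with a median of 0.05. Mef2d (275 against 333 CPM), the serum response factor partner Elk4 (268 against 261 CPM) and the kinase Rps6ka1 (223 against 88.7 CPM) came first by that mean. Of 13 later activation genes at 5 CPM, 8 were higher in mock T cells and 2 lower, with a median of 3.03. The median was the same when the 2 genes with no read in mock B cells were set to a floor of 3 reads. That setting could not test it, because both genes lie far above the median. Among the 8 were genes almost absent from mock B cells, named after their values were seen. These were Icos (104 against 0.0296 CPM), Cd40lg (72.2 against 0.0296 CPM), Tnfrsf9 (33.9 against 0 CPM) and Fasl (8.83 against 0 CPM). Whether lineage or activation sets this median was not tested. Cd69 (506 against 607 CPM), Cd83 (13.6 against 360 CPM) and Nfatc1 (207 against 307 CPM) came first by the mean of the mock libraries, and of these Cd83 was among the 2 that were lower.

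**Figure D3:**
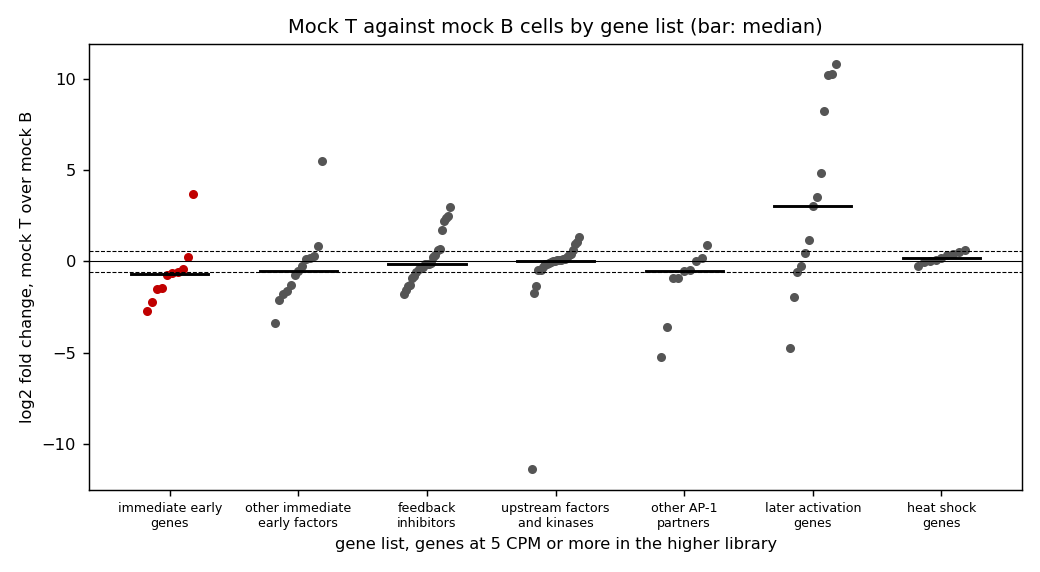
Log2 fold change of mock T over mock B cells for the genes of each list at 5 CPM or more in the higher library, 1 point per gene, with the median as a bar and 1.5-fold as dashed lines. Medians were -0.69 for the immediate early genes, -0.52 for other immediate early factors, -0.14 for feedback inhibitors, 0.05 for upstream factors, 3.03 for later activation genes and 0.21 for heat shock genes.

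Heat shock genes, some of which are known to rise along with immediate early genes when tissue is handled, were listed as well. Of 9 at 5 CPM, 1 was higher in mock T cells by 1.5-fold or more and 0 lower (median 0.21). Hsp90ab1 was at 1367 CPM in T and 1315 CPM in B cells, Hspa8 at 763 and 501 CPM, and Hsp90aa1 at 308 and 362 CPM. Named after their values were seen, Dnajb1 was at 134 and 105 CPM, Hspa1b at 102 and 77.5 CPM, and Hspa1a at 20.1 and 17.3 CPM. Markers of other cells were low: the 7 myeloid markers summed to 2.39 and 3.16 CPM in the T libraries and 8.75 to 10.2 CPM in the B libraries, led by Adgre1 (5.01 to 5.83 CPM) in B cells. The 4 dendritic markers summed to 5.23 to 6.62 CPM in all libraries, and the 4 NK markers to 8.21 and 8.39 CPM in T and 0.569 to 0.788 CPM in B libraries. The 2 platelet markers summed to 0 to 0.0207 CPM, the 3 erythroid ones to 0.0693 to 0.275 CPM, and the stromal ones to 0 to 0.952 CPM without Pecam1, which lymphocytes also express. The part of handling and of other cells in the members' levels was not tested.

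With Pou2f1 targeted, none of the members reached 1.5-fold against mock in either cell type. In sgRNA-P1 T cells, all 10 were at 5 CPM or more and 0 passed, where 0.11% of 10007 genes did, 0.06% higher and 0.05% lower. Their log2 fold changes ran from -0.09 to 0.05 with a median of -0.05, and the median of all genes was -0.02. The abundant members had narrow intervals that excluded 0, with Fos at -0.09 [-0.11 to -0.07], Junb at -0.09 [-0.11 to -0.07] and Nr4a1 at -0.07 [-0.12 to -0.02]. Of all genes, 28.7% were at least as far from 0 as Fos. Egr1 was at -0.06 [-0.14 to 0.01], Egr2, the member with the octamer, at -0.06 [-0.24 to 0.11], and Egr3 at 0.01 [-0.12 to 0.14]. Pou2f1 itself was at -1.06 [-1.15 to -0.97]. Across all genes the fold change in sgRNA-P1 T cells fell with GC content (rho -0.23 by Spearman over genes, which are not independent replicates). After a trend on GC content and length was subtracted, Junb moved from -0.09 to -0.05 and Nr4a1 from -0.07 to -0.04. Jund moved away from 0, from 0.05 to 0.10, and Fos stayed at -0.09.

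In sgRNA-P1 B cells, 9 members were at 5 CPM or more and 0 passed 1.5-fold, where 0.735% of 10062 genes did, 0.477% higher and 0.258% lower. The member farthest from 0 was Jund, at -0.19 [-0.25 to -0.14], and 20.6% of all genes were at least as far. Fos was at 0.00 [-0.01 to 0.02] and Egr3 at 0.09 [0.03 to 0.15]. Egr2 stood at 0.05 [-0.07 to 0.16]. Nr4a3, below 5 CPM in B cells, was at -0.27 [-0.92 to 0.41], an interval that spans large changes both ways, so a difference was not detectable at this depth. Across all genes the fold change in this library was lower the higher the GC content (rho -0.50 by Spearman over genes, and genes are not independent replicates). Jund and Junb had the highest GC content of the members, 67.1% and 62.6% in their longest transcripts, against a median of 49.2% over genes at 5 CPM. After a trend on GC content and length was subtracted, Jund was at -0.03 and Junb moved from -0.07 to 0.06. The other members with a value moved up as well, to between 0.05 for Nr4a1 and 0.12 for Egr3. Most of these lay farther from 0 than before, such as Jun (0.03 to 0.11) and Egr1 (0.04 to 0.11), and only Jund stayed below 0.

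**Figure D4:**
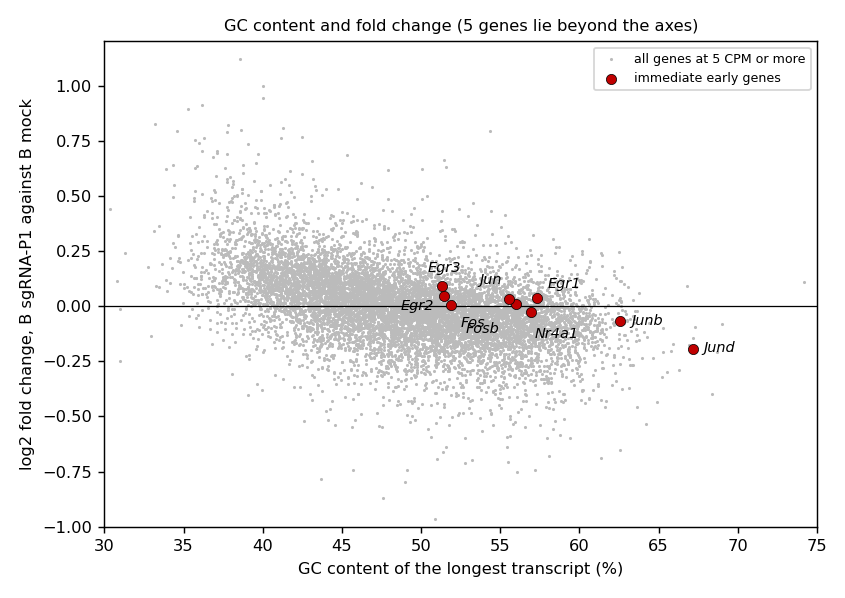
Log2 fold change of sgRNA-P1 B cells over mock B cells against the GC content (%) of each gene's longest transcript, for 9703 genes at 5 CPM or more. The 9 immediate early genes drawn (red) lie within the cloud of all genes, with Jund lowest at -0.19 and 67.1% GC.

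In sgRNA-P2 B cells, again 0 of 9 members passed, where 0.278% of 10061 genes did, 0.129% higher and 0.149% lower. This comparison shares its mock library with the previous one. The values ran from -0.04 for Jund [-0.10 to 0.02] to 0.07 for Egr3 [0.01 to 0.14], with Egr2 at 0.06 [-0.07 to 0.20] and Fos at 0.02 [-0.01 to 0.04]. Nr4a3 was at 0.21 [-0.48 to 0.93]. Between the guides, sgRNA-P1 over sgRNA-P2, 0 of 9 passed, where 0.418% of 10059 genes did, 0.298% higher and 0.119% lower, and the largest values were Jund at -0.15 [-0.21 to -0.09] and Junb at -0.09 [-0.12 to -0.06]. After the trend on GC content and length these were -0.04 and -0.00, while Jun went from 0.02 to 0.08.

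**Figure D5:**
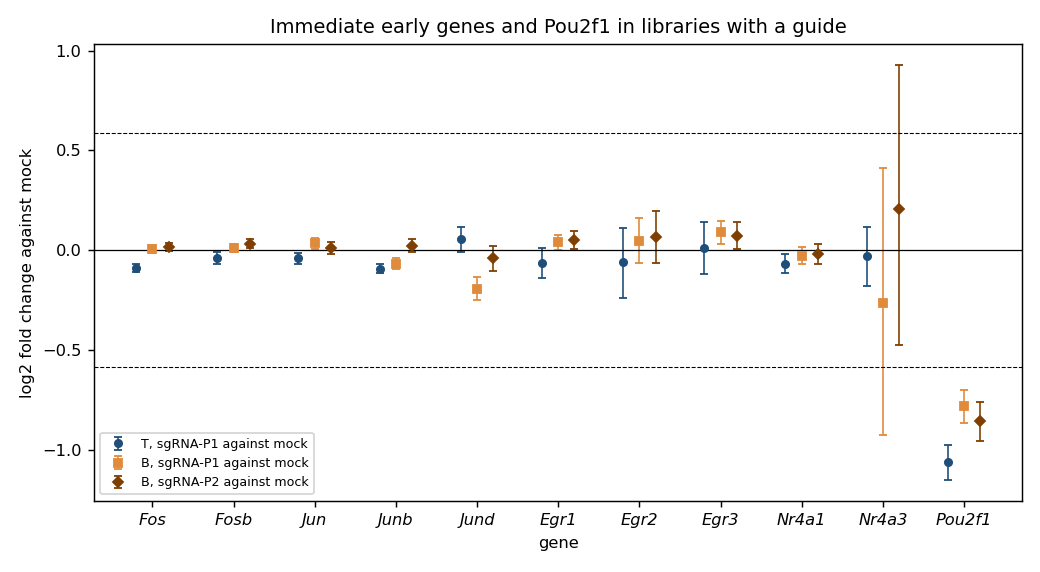
Log2 fold change against mock cells of the same type for the 10 immediate early genes and Pou2f1, with 95% counting intervals as bars and 1.5-fold as dashed lines. The members at 5 CPM or more lie between -0.19 and 0.09, and Pou2f1 lies at -1.06, -0.78 and -0.86.

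The guide term of the model over 5 libraries was used to estimate a change shared by the 3 guided libraries. None of the 10 members passed (edgeR's quasi-likelihood test, adjusted p = 0.99965 for each), where 0.0284% of 17581 genes did, 0.0171% higher and 0.0114% lower. No member had an unadjusted p under 0.05, against 427 of all genes, and DESeq2's Wald test also called 0 members. For 9 members the 95% interval of the model stayed within -0.17 to 0.16 on the log2 scale. Egr2 was at 0.01 with an interval of -0.12 to 0.15, and Fos at -0.03 with -0.14 to 0.08. For Nr4a3, at -0.03, the interval ran from -0.30 to 0.23. Pou2f1 was at -0.92 with a standard error of 0.06 (adjusted p = 5.66e-06). Like the p-values of the cell type term, these intervals measure only the spread between these libraries, which may be technical. They also depend on which libraries are fitted. Without the sgRNA-P2 B library the interval was wider for Junb (-0.21 to 0.07) and for Fos (-0.18 to 0.11). An interaction term, added after the data were seen, estimated how the guide effect differs between T and B cells. Its estimates of the T minus the B effect ran from -0.12 for Egr2 to 0.16 for Jund. That fit had 1 residual degree of freedom and held groups of 1 library, so no call was drawn from it.

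In the lists around the members, 0 genes at 5 CPM or more passed 1.5-fold in any comparison of a guide with mock or of the guides with each other. The shares of all genes past that size were 0.11% to 0.735%, so a count of 0 does not set lists of this length apart. Medians over the lists lay between -0.03 and 0.01 in sgRNA-P1 T cells, between -0.03 and 0.06 in sgRNA-P1 B cells, and between -0.03 and 0.03 in sgRNA-P2 B cells. With sgRNA-P1 in B cells the feedback inhibitors spread from -0.26 to 0.30 and the upstream factors from -0.11 to 0.35. The members spread from -0.19 to 0.09, without Nr4a3, which was below 5 CPM. These ranges cover 21, 24 and 9 genes, and a range grows with the number of genes, so their widths are not directly comparable.

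For each member, the nearest genes by profile were found over the 5 libraries, as the distance between log2 levels centred on their mean, among 7653 other genes at 20 CPM or more in some library. Fos was nearest to Dennd4b (distance 0.00619), at 202 and 189 CPM in the T libraries and 315 to 318 CPM in the B libraries. Nr4a1 was nearest to Phc2 (0.0143), Jun to Galnt11 (0.0168), Fosb to the membrane glycoprotein gene Cd200 (0.0244) and Junb to Sppl3 (0.0312). Egr1 was nearest to Acsf2 (0.0366), Egr2 to Naaa (0.0489), Jund to the cell cycle kinase gene Cdk2 (0.0558) and Egr3 to Dennd4a (0.0617). Nr4a3 had the most distant neighbour, Mvb12b (0.178), at 36.6 and 35.1 CPM in T and 2.64 to 3.31 CPM in B libraries. The second neighbours were Cryzl1, Scamp2, Nsmce4a, Naaa, Exosc2, Mast4, Map4k1, Sharpin, Kcnq5 and Enc1, in the same order of members. No member was among the 2 nearest genes of another. The points share their libraries, and most of each profile is the T and B difference.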

How the data were processed

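The deposited table gives whole-number counts of reads for every gene in each column, and merged exon lengths, in the layout of featureCounts. HISAT2, featureCounts and the builds mm39 and hg38 are named per the submitters' processing notes, while the labels used here name no version, annotation, strand setting or rule for multi-mapped reads. The 10 columns fell into 5 groups by the labels. Within each group every gene fitted 1 count divided in a fixed proportion to within 1 read, with a mean chi-square per gene of 0.00231 to 0.00283, so columns were summed. Single columns held 11337138 to 41310310 reads.

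Sums were scaled by TMM factors (edgeR 4.0.16, R 4.3.3; 0.982 to 1.015). Log2 fold changes used a prior of 1 read, and a change was called at 1.5-fold with 5 CPM in the higher library. Exact conditional and Poisson 95% intervals (scipy 1.17.1) were taken on reads divided by 2. The ground was that counting both reads of a pair gives even totals. Summed totals under 10 reads were mostly odd, and 72.0 to 74.8% became even once 1 read was added for rounding down in the columns. The intervals cover counting error only. The model had cell type and guide as terms and 2 residual degrees of freedom. It was run on simulated counts with 200 changed genes. These were drawn as independent libraries, so that run cannot show how the model does on libraries whose independence is unknown. DESeq2 1.42.0 was an alternative. The planned test over 10 columns was not used, because the columns are not separate libraries.

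The members and lists were chosen with earlier results of these data known. Named genes were all members, the 3 genes of each list with the highest mean level per kilobase over the mock libraries, list genes past 1.5-fold with a guide, the 2 nearest profiles and Pou2f1. Fosl2, Nr4a2, Icos, Cd40lg, Tnfrsf9, Fasl, Hspa1a, Hspa1b and Dnajb1 were named after their values were seen. GC content came from GENCODE M21 transcripts (10567 of 10964 symbols at 5 CPM matched). Promoters came from RefSeq on GRCm38.p6, a different build from the deposited coordinates. Windows for Egr1 and Egr3 were not used here.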

Additional observations from a re-analysis of the deposited data

How the results depend on the processing

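Every called member kept its direction and stayed past 1.5-fold in mock T against mock B cells under other scalings, priors and the GC and length trend. The same held with other minimum levels and with single columns, but these settings could not test it. A minimum level does not alter a fold change, and the columns of a group are parts of 1 count. No member reached 1.5-fold with a guide under any of these settings. Nr4a1 and Fos, nearest the size, ranged from -0.64 to -0.59 and from -0.66 to -0.64. In sgRNA-P1 B cells, some small values changed sign, among them Fos and Junb: Fos ranged from -0.02 to 0.07 and Junb from -0.09 to 0.06. Counts over all genes moved with the minimum level. At 1 CPM, no minimum and 20 CPM, the genes past 1.5-fold numbered 6091, 13517 and 2531 for mock T against mock B cells. They numbered 282, 6560 and 6 for sgRNA-P1 T cells, 565, 6220 and 15 for sgRNA-P1 B cells, 507, 7124 and 2 for sgRNA-P2 B cells, and 503, 6413 and 7 between the guides. These settings test more or fewer genes of low count. With the GC and length trend subtracted, 38 of 9703 genes with a GC value passed for sgRNA-P1 B cells (69 of the same genes before) and 24 of 9700 between the guides (38 before), and the cause was not tested. For the guide term, 5 genes passed, against 32 with no filter, 3 (without the sgRNA-P1 T library) to 18 (without the sgRNA-P1 B library) with each library left out in turn, and 3 in B cells alone. It was 8 without mock T and 14 without sgRNA-P2 B cells. All 10 members passed the cell type term and none the guide term in each of these fits where the term could be estimated. The weakest adjusted p for the cell type term was 0.0459, for Junb without the mock B library (edgeR's quasi-likelihood test). The cell type term could not be fitted in B cells alone. No paired analysis was possible because the columns that carry the replicate numbers are parts of 1 library. In B cells, depth limits Nr4a3, at 72 to 89 reads a library.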
